A study of Homo sapiens with 6 samples.

Results

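The 10 genes described here were grouped for roles in the editing, binding, unwinding or decay of double-stranded or viral RNA: ADAR, ADARB1, PNPT1, SUPV3L1, DHX9, STAU1, ZC3HAV1, N4BP1, KHNYN and ISG20. They were chosen by function, as a list of names, but with earlier results of these data known. All 10 were found by their Ensembl identifiers among the 57736 genes of the deposited count table. RNA came from PC3, an established line of human prostate cancer cells, which received a control siRNA (siCTRL, labelled Mic60 WT, n = 3) or an siRNA against Mic60 (siMic60, labelled Mic60 KO, n = 3). The labels thus name a knockout in one field and an siRNA in another. They give neither the time after transfection nor whether the replicates were separate cultures. The paper's supplement says in general that its data come from 3 or more independent biological replicates, but that statement does not name these libraries. The p-values rest on the variation among these 6 libraries alone, which may be technical. Only 1 Mic60-directed group was sequenced, and both groups received a duplex RNA. Loss of Mic60 and effects of the particular siRNA therefore cannot be told apart.

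Double-stranded RNA is a mark of viral infection, but cells also make it themselves, from repeats in nuclear transcripts and from mitochondrial DNA, which is transcribed on both strands. ADAR enzymes deaminate adenosines in such RNA to inosines and loosen the duplex, and the degradosome of PNPT1 and SUPV3L1 destroys it inside mitochondria. Duplexes that persist in the cytosol can be bound by sensors such as IFIH1 (MDA5), which start an interferon response. ADAR, PNPT1, ZC3HAV1, N4BP1 and ISG20 are known from other work as genes that interferon can induce.

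Libraries held 6644495 to 8779877 counts and came from a QuantSeq 3′ kit, which reads transcripts near their polyadenylated end, so that isoforms sharing a 3′ end, such as the long and short forms of ADAR, are counted together. Levels are given as CPM, counts scaled to a common library size after TMM normalisation. Of the marker genes examined, the 5 epithelial ones (KRT8, KRT18, KRT19, EPCAM, CDH1) were all detected, with a summed level of 1556 to 2068 CPM in siCTRL and 1044 to 1090 CPM in siMic60 libraries (scaled by library totals). Most of that sum was KRT19, at 1418, 1017 and 1088 CPM in siCTRL and 613, 558 and 605 CPM in siMic60 libraries. KRT8 went the other way, from 107, 124 and 134 CPM in siCTRL to 194, 154 and 189 CPM in siMic60 libraries. Of the 5 markers of androgen-dependent luminal cells, KLK3 had no count in any library, and the list summed to 26.6 to 30.8 CPM in siCTRL and 46.6 to 52.4 CPM in siMic60 libraries. Among 10 leukocyte markers, 5 were at 0 in all 6 libraries, among them CD3E, CD3D, NKG7 and MS4A1, and the list summed to 74.2 to 95.1 CPM in siCTRL and 139 to 163 CPM in siMic60 libraries, nearly all of it IL7R and CD68. The 3 markers of plasmacytoid dendritic cells had no count. The 5 fibroblast markers summed to 287 to 371 CPM in siCTRL and 46.2 to 65.7 CPM in siMic60 libraries, nearly all of it COL1A1, and DCN was at 0 in every library. The part of these shifts in the results was not tested. IMMT (ENSG00000132305), which encodes Mic60, was at 88.9, 91.2 and 90.4 CPM with siCTRL and at 5.83, 7.34 and 8.53 CPM with siMic60, or 8.12% of control (log2 fold change ± SE, −3.62 ± 0.15, edgeR adjusted p = 4.29e-10).

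Promoter sequences are shown because interferon acts on genes through short DNA elements before the transcription start. Windows from 250 bases before to 50 bases after each RefSeq start (build GRCh38.p14, not the hg19 build of the counts) were available for all 10 genes, 17 windows in all. Both strands were searched for the core of the interferon-stimulated response element (ISRE, GAAANNGAAA), for the shorter core bound by interferon regulatory factors (IRF, AANNGAAA, which lies within the ISRE core) and for the interferon-gamma element called GAS (TTCNNNGAA). The 30-base stretches below show the matches written in the direction of the gene in 5 of the genes that rose, with the match in capitals. The letters of GAS read the same on both strands, so a GAS match has no direction of its own.
ISG20 ISRE core, chr15:88638937-88638966, plus strand: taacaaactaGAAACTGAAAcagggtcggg
PNPT1 IRF core, chr2:55693890-55693919, minus strand: gggcaccgcggAAACGAAActccatcaggc
PNPT1 GAS, chr2:55693943-55693972, minus strand: ctctctagtcTTCGTAGAAggtggccaagg
ZC3HAV1 GAS, chr7:139109805-139109834, minus strand: ggtctgctctTTCCGGGAAtgggtggggtg
SUPV3L1 GAS, chr10:69180110-69180139, plus strand: aatcttctttTTCCCTGAAagaacaccctc
KHNYN GAS, chr14:24429722-24429751, plus strand: tggttcccctTTCCGAGAAgtaactgcgca
ISG20 alone among the 10 genes held the ISRE core, which begins 69 bases before its start and which 4.38% of the 27305 genes with a window hold (3.57% of all 35116 windows). The IRF core was present in 4 of the 10 genes (PNPT1, SUPV3L1, ZC3HAV1 and ISG20), against 26.7% of the 27305 genes, and GAS in 4 of the 10 (PNPT1, SUPV3L1, ZC3HAV1 and KHNYN), against 9.38%. Over all 35116 windows the shares were 22.8% for the IRF core and 7.66% for GAS. Genes with several windows had more places for a match: ADARB1 had 4, ADAR 3, and STAU1 and KHNYN 2 each. Of these genes only KHNYN held a match. PNPT1 held a second IRF core 98 bases before its start on the opposite strand, and the only IRF core of SUPV3L1 also lay on the opposite strand, 209 bases before the start. The IRF core of ZC3HAV1 lay past its start. None of the 3 sets of letters occurred in the windows of ADAR, ADARB1, DHX9, STAU1 or N4BP1, and this says only that they are not in these windows. These matches are descriptions of the letters and not shown to be sites of binding.

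Mic60 silencing was followed by higher transcript levels of 7 of the 10 genes and by a lower level of none, at an adjusted p under 0.05. N4BP1 rose the most, 3.82-fold, followed by ISG20 (2.87-fold), ZC3HAV1 (2.43-fold), PNPT1 (2.13-fold), ADAR (2.02-fold), SUPV3L1 (1.49-fold) and KHNYN (1.37-fold). ADARB1, DHX9 and STAU1 did not pass the test. Of all 14653 genes tested, 17.7% were called higher and 17.9% lower. The median log2 fold change was 0.79 over the 10 genes and 0.0022 over all genes tested. For the same 7 genes every siMic60 library lay above every siCTRL library, as it did for 23.7% of all genes, while 24.1% of all genes and none of the 10 had every siMic60 library below. The 10 genes and the related lists below were chosen with earlier results of these data known. Comparisons of them with all genes are therefore descriptions and not tests of the lists. In bulk RNA, fewer cells of a type and less RNA per cell cannot be told apart.

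**Figure D1:**
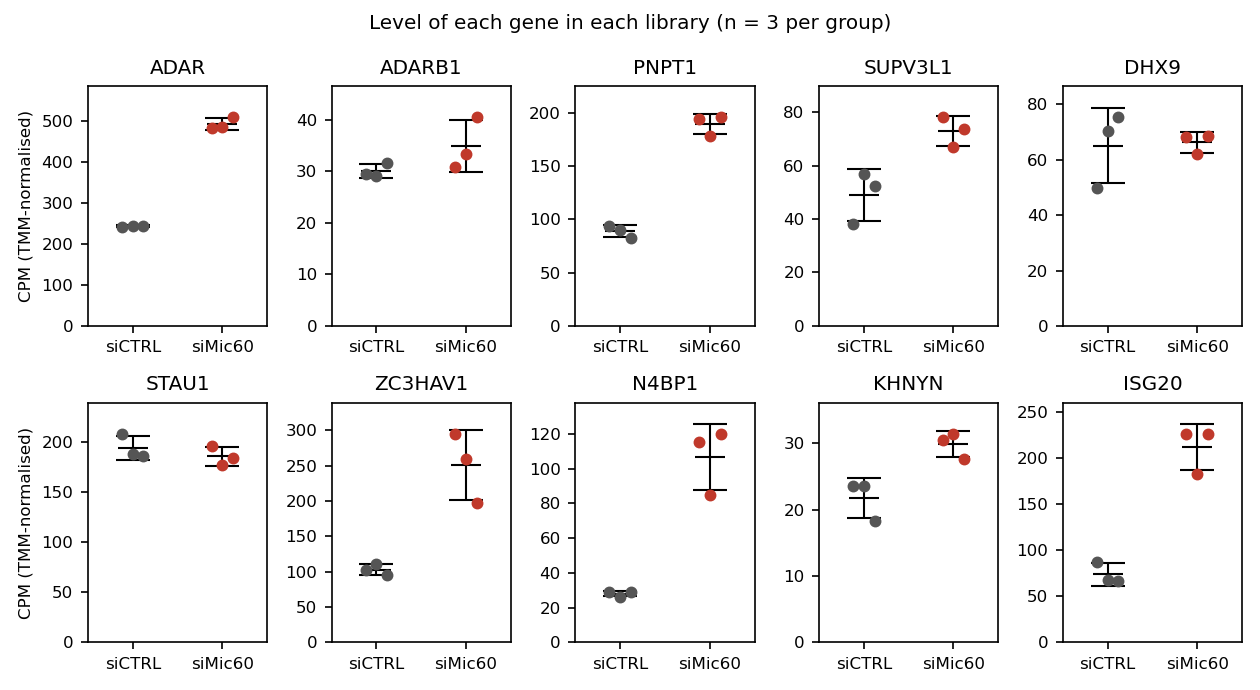
CPM (vertical axis, from 0) of each of the 10 genes in the 3 siCTRL (grey) and 3 siMic60 (red) libraries, with the mean and SD in black. The groups are apart for ADAR, PNPT1, SUPV3L1, ZC3HAV1, N4BP1, KHNYN and ISG20 and overlap for ADARB1, DHX9 and STAU1.

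Among the editing enzymes, ADAR changed and ADARB1 did not pass the test. ADAR (ENSG00000160710), which carries out most A-to-I editing of long duplexes, was at 241, 244 and 244 CPM with siCTRL and at 483, 484 and 508 CPM with siMic60. Each group was tight, and the lowest siMic60 value was far above the highest siCTRL value. ADAR rose by 1.01 ± 0.10 on the log2 scale (edgeR adjusted p = 3.34e-06). ADARB1 (ENSG00000197381), known as ADAR2 and for editing of glutamate receptor transcripts, was at 29.5, 29.0 and 31.6 CPM in siCTRL and at 30.8, 33.3 and 40.5 CPM in siMic60 libraries. The groups overlapped and siMic60 replicate 3 was the highest, with a fold of 1.16 and a 95% interval from 0.945 to 1.43 (adjusted p = 0.248 from edgeR).
The ratio of ADAR to ADARB1 counts within a library does not depend on how libraries are scaled. Control silencing gave ratios of 8.16, 8.39 and 7.72, and Mic60 silencing ratios of 15.6, 14.5 and 12.5. The groups did not overlap and differed by 0.81 ± 0.10 (log2, SE). Counts of inosines cannot be had from this table, so editing itself was not measured.

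Both parts of the mitochondrial degradosome rose. PNPT1 (ENSG00000138035), the exoribonuclease known as PNPase, was at 93.7, 90.2 and 82.6 CPM in siCTRL and at 194, 179 and 196 CPM in siMic60 libraries. The groups lay far apart relative to their spread (1.09 ± 0.11 on the log2 scale, edgeR adjusted p = 4.30e-06). SUPV3L1 (ENSG00000156502), the helicase that unwinds RNA for it, was at 38.0, 56.7 and 52.3 CPM in siCTRL and at 78.0, 66.9 and 73.6 CPM in siMic60 libraries. Here siCTRL replicate 1 was the lowest of all, and the other siCTRL libraries lay nearer to the siMic60 libraries (0.57 ± 0.15 on the log2 scale, edgeR adjusted p = 0.00723). Without siCTRL replicate 1 the log2 fold change of SUPV3L1 was 0.42 (adjusted p = 0.0221 from edgeR).
The ratio of PNPT1 to SUPV3L1 counts was 2.46, 1.59 and 1.58 with siCTRL and 2.48, 2.67 and 2.66 with siMic60. The groups did not overlap, but siCTRL replicate 1 lay just under the lowest siMic60 library. The difference was 0.50 ± 0.21 (log2, SE), against an SD of 0.37 among the siCTRL libraries, and ran from 0.40 without siCTRL replicate 3 to 0.72 without siCTRL replicate 1.

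Of the duplex-binding proteins with roles in normal RNA handling, neither passed the test. DHX9 (ENSG00000135829), a nuclear helicase that resolves structures formed by repeats in RNA, was at 49.6, 70.4 and 75.3 CPM in siCTRL and at 68.1, 61.9 and 68.7 CPM in siMic60 libraries. All 3 siMic60 values fell within the range of the siCTRL values, and the fold was 1.02 with a 95% interval from 0.816 to 1.27. STAU1 (ENSG00000124214), a protein that binds duplexes in messenger RNA and takes part in RNA transport and decay, was at 208, 187 and 186 CPM in siCTRL and at 195, 177 and 183 CPM in siMic60 libraries. The groups overlapped, with a fold of 0.957 and a 95% interval from 0.812 to 1.13. For both genes these intervals leave out changes of the size seen in ADAR, PNPT1, ZC3HAV1, N4BP1 and ISG20, which all had fitted folds over 2.

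Of the antiviral RNA-decay genes, ZC3HAV1, N4BP1 and ISG20 rose clearly and KHNYN narrowly passed. ZC3HAV1 (ENSG00000105939), the zinc-finger protein ZAP, which binds CpG-rich RNA and brings nucleases to it, was at 102, 111 and 96.0 CPM in siCTRL and at 295, 260 and 197 CPM in siMic60 libraries. The siMic60 libraries were spread widely, with replicate 3 the lowest, and all lay well above siCTRL (1.28 ± 0.14 on the log2 scale, edgeR adjusted p = 8.68e-06). N4BP1 (ENSG00000102921), an endoribonuclease that restricts viral RNA and restrains NF-kB signalling, was at 28.8, 26.3 and 28.7 CPM in siCTRL and at 115, 84.8 and 120 CPM in siMic60 libraries. Replicate 2 was the lowest siMic60 library and still far above every siCTRL library (1.93 ± 0.15 on the log2 scale, edgeR adjusted p = 1.55e-07). ISG20 (ENSG00000172183), an exonuclease that degrades single-stranded RNA and the gene with the ISRE core shown above, was at 87.4, 67.2 and 66.1 CPM in siCTRL and at 226, 182 and 226 CPM in siMic60 libraries. The groups were well apart, with siCTRL replicate 1 the highest of its group (1.52 ± 0.14 on the log2 scale, edgeR adjusted p = 1.23e-06).
KHNYN (ENSG00000100441), a cofactor of ZAP that belongs to the same endonuclease family as N4BP1, was at 23.6, 23.5 and 18.4 CPM in siCTRL and at 30.5, 31.5 and 27.7 CPM in siMic60 libraries. The groups were apart by a small margin (0.45 ± 0.15 on the log2 scale, edgeR adjusted p = 0.0289). The call was lost when libraries were scaled by their totals (adjusted p = 0.0523) and without siCTRL replicate 3, siMic60 replicate 1 or siMic60 replicate 2 (adjusted p = 0.137, 0.0677 and 0.0811, all from edgeR). In GENCODE 29, SDR39U1 overlaps a last exon of KHNYN on the opposite strand. SDR39U1 had 212, 170 and 168 counts in siCTRL and 162, 264 and 215 counts in siMic60 libraries, beside 197, 188 and 149 and then 199, 257 and 240 counts for KHNYN, and the strand setting of the counting is not given in the sources used here. Reads of the 2 genes could therefore be shared, and the value of KHNYN is uncertain to that extent. N4BP1 is overlapped in the same way by 1 antisense gene, which had no count, and the pseudogenes PNPT1P1, PNPT1P2 and DHX9P1 had none either.
Within a library, the ratio of ZC3HAV1 to KHNYN was 4.29, 4.71 and 5.20 in siCTRL and 9.63, 8.23 and 7.10 in siMic60, a difference of 0.81 ± 0.15 (log2, SE). The ratio of N4BP1 to KHNYN went from 1.22, 1.12 and 1.56 to 3.77, 2.69 and 4.32, a difference of 1.46 ± 0.25 (log2, SE). In both cases the groups did not overlap. For each of the 4 ratios the two-sided exact permutation test gave p = 0.1 (0.1 when adjusted over the 4 pairs), the smallest that 3 against 3 libraries allow, so none could pass 0.05.

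**Figure D2:**
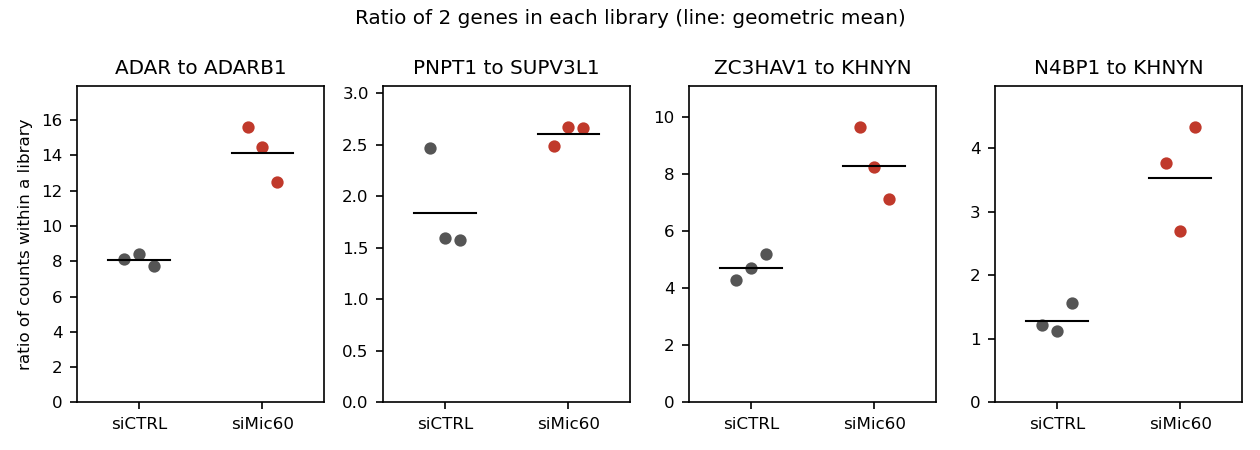
Ratio of the counts of 2 genes within each library (vertical axis, from 0), with 1 point per library and a line at the geometric mean of each group. All 4 ratios are higher in siMic60, and the siCTRL library with a PNPT1 to SUPV3L1 ratio of 2.46 lies next to the siMic60 libraries.

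**Figure D3:**
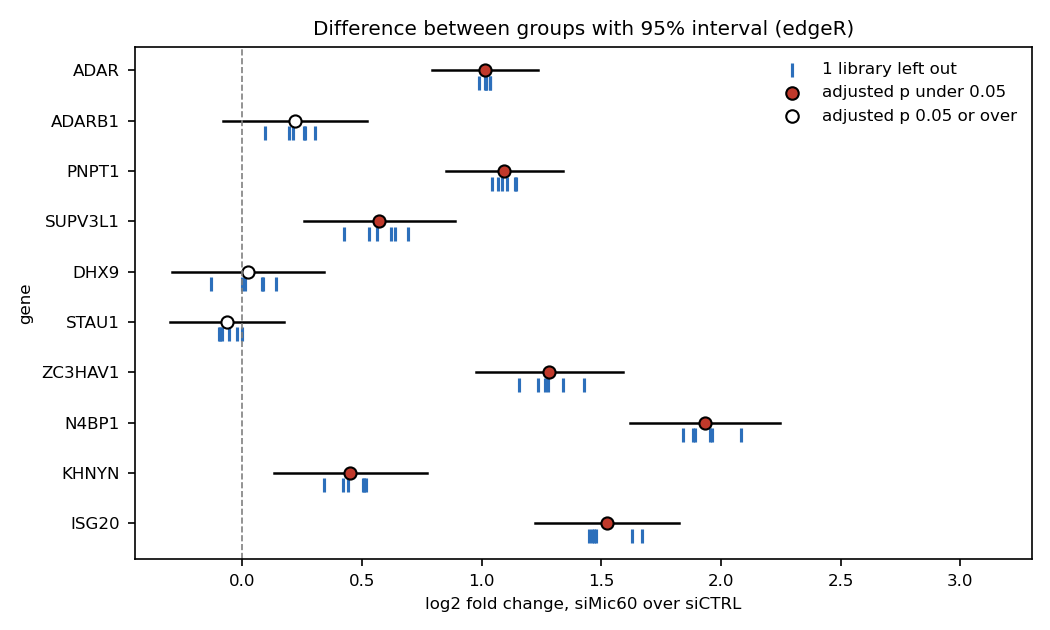
Log2 fold change of each gene (points, red where the adjusted p was under 0.05 and white otherwise) with its 95% interval from edgeR, and below each the values with 1 library left out (blue ticks). N4BP1 stands at 1.93 and ADAR at 1.01, while the intervals of ADARB1, DHX9 and STAU1 include 0.

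By Pearson's r of log2 CPM over the 6 libraries, the genes whose pattern was most like that of N4BP1 were ZNF343 (0.9992), IFIH1 (0.9986) and IQGAP1 (0.9986), and those most like ISG20 were LGALS3BP (0.9993), DSP (0.9981) and DDIT3 (0.9979). With 2 groups of 3 libraries such values are common: 804 genes had r over 0.95 with N4BP1 and 626 with ISG20.

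Of 11 listed sensors and effectors that act on the same RNA, 9 were tested, 7 rose and 1 fell (17.7% and 17.9% over all genes tested), with a median log2 fold change of 2.96. IFIH1, the sensor of long duplexes that ADAR editing can keep from activation, was at 13.7, 11.5 and 13.3 CPM in siCTRL and 145, 104 and 172 CPM in siMic60 libraries. EIF2AK2, the kinase PKR that halts translation on binding duplexes, rose 1.88-fold, less than RIGI (7.80-fold) and the oligoadenylate synthetases OAS1 (10.2-fold), OAS2 (8.14-fold) and OAS3 (5.62-fold). MAVS, the mitochondrial adaptor of IFIH1 and RIGI, fell from 44.8, 41.4 and 46.8 CPM to 25.1, 24.2 and 20.5 CPM (−0.93 ± 0.14 on the log2 scale, edgeR adjusted p = 1.02e-04). DHX58 was listed at 0 in all 6 libraries and ZBP1 had at most 9 counts, so neither was tested.

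Of 15 tested genes for other proteins that bind duplexes or process microRNA precursors, 2 rose, 4 fell and 9 did not pass, with a median log2 fold change of 0.012. These counts lie near the shares over all genes tested, 17.7% higher and 17.9% lower, and are no result about the list. DICER1, which cuts duplexes into small RNAs, fell from 90.1, 102 and 96.6 CPM to 57.3, 38.5 and 42.9 CPM, or to 47.9% of control (adjusted p = 5.54e-05 from edgeR). STAU2, the relative of STAU1, fell to 66.3% and the zinc-finger protein ZFR to 72.2% of control, and PRKRA, a partner of DICER1 that can activate PKR, also fell, to 75.6%. ILF2, which takes part in RNA processing, rose 1.53-fold. The other gene that rose was XPO5 (1.36-fold), which exports microRNA precursors from the nucleus.

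Of 18 other genes of mitochondrial RNA processing and decay, 4 rose, 3 fell and 11 did not pass, again near the 17.7% and 17.9% over all genes tested, so that the values below are those of single genes. HSD17B10, a subunit of mitochondrial RNase P, rose 1.57-fold, and PRORP, the nuclease subunit of that enzyme, fell to 60.8% of control. TRMT10C, also a subunit of that enzyme, rose 1.31-fold and passed narrowly (adjusted p = 0.0486 from edgeR). GRSF1, which works with the degradosome on mitochondrial transcripts, rose 1.43-fold. FASTKD5, which is needed to mature certain mitochondrial transcripts, fell to 59.8% of control. The transcripts encoded in mitochondrial DNA were not analysed here.

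In the cytosol and nucleus, 7 of 22 tested RNA-decay genes rose and none fell, against 17.7% and 17.9% over all genes tested. XRN1, the main 5′ to 3′ exonuclease of the cytosol, rose from 19.1, 20.9 and 17.6 CPM to 44.9, 37.2 and 53.0 CPM, or 2.35-fold (adjusted p = 2.61e-05 from edgeR). UPF1, the helicase of nonsense-mediated decay that STAU1 also recruits, rose 1.56-fold, SKIC3, of the Ski complex that feeds the exosome, 1.83-fold, and EXOSC8, an exosome subunit, 1.51-fold. Of the 10 exosome subunits listed, EXOSC6, EXOSC8, EXOSC9 and EXOSC10 rose by 1.37-fold to 1.51-fold, and the other 6 did not pass.

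Among relatives and cofactors of ZC3HAV1, N4BP1, KHNYN and ISG20, 5 of 12 tested genes rose and none fell, against 17.7% and 17.9% over all genes tested. Without siCTRL replicate 1, 4 rose and 1 fell. PARP12, a relative of ZC3HAV1, rose from 11.6, 7.88 and 11.6 CPM to 54.7, 47.5 and 67.2 CPM, or 5.44-fold (adjusted p = 1.26e-07 from edgeR). TRIM25, the ubiquitin ligase that ZAP needs to act, rose 1.78-fold, and the exonucleases REXO4 and ISG20L2, relatives of ISG20, rose 1.59-fold and 1.47-fold. MARF1, an endonuclease, was the fifth at 1.37-fold, with overlapping groups. ZC3H12A, the inflammation-linked nuclease regnase-1, had a fold of 0.862 (adjusted p = 0.418 from edgeR). NYNRIN, ZC3HAV1L, ZC3H12B and ZC3H12D were too low to be tested.

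**Figure D4:**
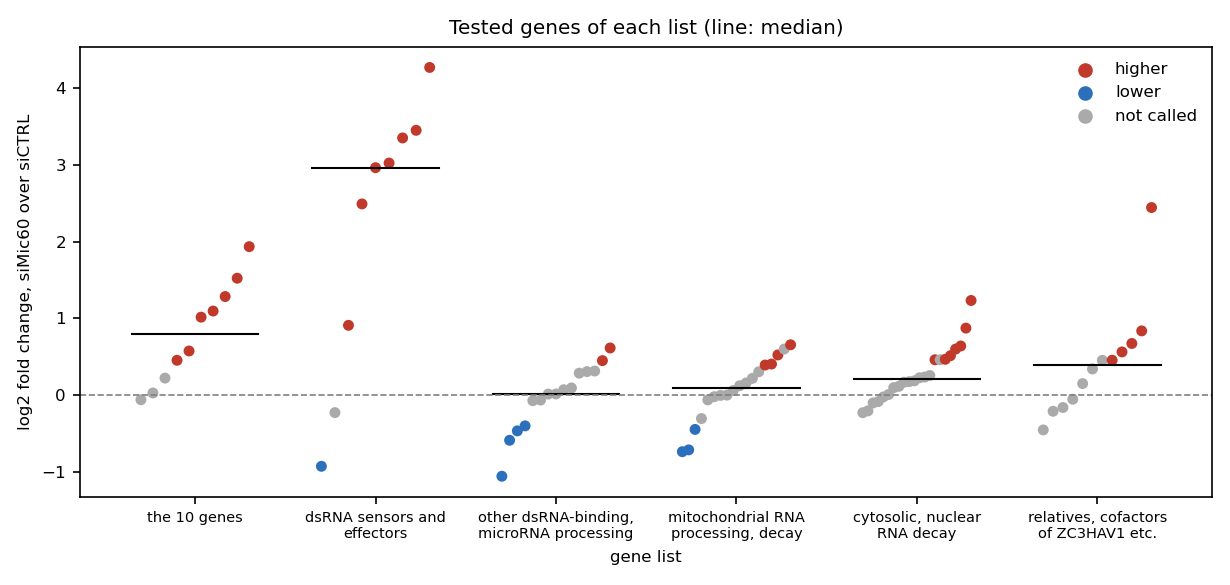
Log2 fold change (vertical axis) of every tested gene in the 10 genes and in 5 related lists, coloured by the edgeR call (red higher, blue lower, grey not called), with a line at each median. The 10 genes have a median of 0.79, the sensors and effectors one of 2.96, and the other lists lie nearer to 0.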

How the data were processed

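The authors deposited 1 table of counts, with a column for each of 6 libraries and no normalization. All values are whole. RSEM 1.2.3, DESeq2 and hg19 (GRCh37) stand in the submitters' processing notes, without their roles. For the aligner, annotation release and strand setting, nothing is given in the sources used here. No test for these counts is stated, so edgeR 4.0.16 in R 4.3.3 was used on all 57736 genes: TMM, at least 10 counts in at least 3 libraries (14653 genes), quasi-likelihood tests, and p-values adjusted by Benjamini-Hochberg with calls at 0.05. Fold changes carry standard errors (SE, after ±) and 95% intervals. Ratios used a prior count of 1. Gene names came from a table of current symbols and GENCODE 29, promoters from RefSeq GRCh38.p14.

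Alternatives were DESeq2 1.42.0, limma 3.58.1 (trend, prior count 2), DESeq2 size factors, library totals, no minimum or one of 50 counts, a replicate block, a prior count of 5 for ratios, and each library left out. The genes, lists and tests were chosen with earlier results of these data known. Besides the 10 genes and IMMT, the text names up to 4 called genes per list with the smallest adjusted p and the 3 most similar genes of 2 members. Other genes were named after their values were seen. The edgeR step was tested on simulated data in which far fewer genes changed than were called here. That test therefore does not measure the error rate in these data. Between libraries of a group, chi-square per degree of freedom was 3.54 to 13.5, above counting noise, so none was the same library deposited again. Some genes of the lists are counted but not reported here by name.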

Additional observations from a re-analysis of the deposited data

How the results depend on the processing

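Of 357 values recomputed under the alternatives, 343 kept their direction, side of the threshold or approximate size. Approximate size was judged with a wide tolerance. A ratio could move by less than the larger group SD, as PNPT1 to SUPV3L1 did from 0.50 to 0.72 (log2). A count could change by a modest factor, such as 7 to 6 of the 10 genes or 2617 to 3003 genes lower. ADAR, PNPT1, SUPV3L1, ZC3HAV1, N4BP1 and ISG20 were called higher under all alternatives. KHNYN fell short with library totals (log2 fold change 0.39) and ran from 0.34 to 0.52 with 1 library left out, so 6 or 7 of the 10 genes were called higher. DHX9, never called, changed sign: −0.034 with library totals, and −0.13 (without siCTRL replicate 1), −0.0033 (without siMic60 replicate 3) and up to 0.14 with others left out. Library totals moved the median of all genes by −0.055 (log2), gave 2223 genes higher and 3003 lower in place of 2587 and 2617, and left 2 mitochondrial RNA genes higher in place of 4. With 1 library left out, that count ran from 2 (without siCTRL replicate 2, siMic60 replicate 1 or siMic60 replicate 3) to 4. Duplex-binding and microRNA-processing genes numbered 1 (without siMic60 replicate 2) to 2 higher and 2 (without siCTRL replicate 2) to 4 lower, and relatives and cofactors 0 to 1 lower. Causes were not tested.

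The r of deviations from the group mean was −0.10, −0.031 and 0.029 for libraries with equal replicate numbers. For unequal numbers it ran from −0.11 to 0.12. Equal numbers were thus no more alike, which cannot show whether libraries shared a culture or day. With the replicate block, 7 of the 10 genes were called higher and 0 lower, KHNYN at 0.46 (adjusted p = 0.0333 from edgeR), 2384 of all genes higher and 2382 lower, and no call of the 10 genes changed. Of the 10 genes, KHNYN had the lowest count in every library (149 to 257).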
